A study of Mus musculus with 43 samples.

Results

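The transcription factors that give intestinal epithelium its identity were followed across irradiation, TGFB1 treatment, day and time: Cdx1, Cdx2, Hnf4a, Hnf4g, Gata4, Gata5, Gata6, Klf4 and Klf5. These 9 genes, of 23951 listed in the expression tables, were taken by symbol, and each of the 9 symbols matched 1 row in every table. Bulk RNA-seq covered 18 libraries of wild-type C57BL/6 primary intestinal organoids, 3 with vehicle and 3 with 2 ng/mL TGFB1, a secreted cytokine, for each of 3 conditions. In the first condition the organoids were not irradiated and were collected on day 7. In the second and the third they received 4 Gy on day 4 and were collected on day 7 or on day 11. The TGFB1 or vehicle was given on day 6 for 24 h in every condition, so the day 11 organoids were collected 4 days after the end of that period. Single-cell RNA-seq covered irradiated organoids of the same strain and genotype collected on day 8 after 4 Gy on day 4. These had TGFB1 at 1 ng/mL for 6, 15 or 24 h before collection, or vehicle for 24 h (called 0 h), with 1 library each. It also covered sorted Ki67-RFP+ crypt cells of Mki67tm1.1Cle/J reporter mice, from the proximal small intestine, with 1 library from a non-irradiated littermate and 2 libraries taken 56 h after 12 Gy of whole-body irradiation. The labels do not say whether replicates came from separate mice or cultures, so p-values measure the spread between these libraries, which may be technical.

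CDX proteins are homeobox factors that set intestinal fate, and loss of CDX2 lets stomach genes appear in gut epithelium. HNF4 proteins are nuclear receptors that hold enterocyte genes active, with HNF4A and HNF4G able to stand in for each other. GATA4 marks the proximal small intestine and keeps ileal genes low, GATA6 acts along the whole gut, and GATA5 is the least studied of the trio; KLF4 is linked to cell-cycle exit and goblet cells, and KLF5 to dividing crypt cells.

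The gene-level value of Hnf4a adds transcripts from a pair of alternative start sites, and the promoters of Hnf4a and of Gata5, the member with the clearest rise, are shown for orientation. Sequences are the 250 bases before the RefSeq start site, from GRCm38.p6, written 5′ to 3′ on the strand of the gene, with matches to the 6 motifs searched in capitals. The upstream Hnf4a promoter lies at chr2:163506607-163506856 on the plus strand, the downstream one at chr2:163546905-163547154 on the plus strand, and that of Gata5 at chr2:180334680-180334929 on the minus strand.
Hnf4a upstream: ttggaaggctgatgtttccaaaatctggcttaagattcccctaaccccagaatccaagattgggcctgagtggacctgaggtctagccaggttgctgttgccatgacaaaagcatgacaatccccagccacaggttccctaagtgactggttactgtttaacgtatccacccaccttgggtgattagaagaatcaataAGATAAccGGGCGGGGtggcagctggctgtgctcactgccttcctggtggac
Hnf4a downstream: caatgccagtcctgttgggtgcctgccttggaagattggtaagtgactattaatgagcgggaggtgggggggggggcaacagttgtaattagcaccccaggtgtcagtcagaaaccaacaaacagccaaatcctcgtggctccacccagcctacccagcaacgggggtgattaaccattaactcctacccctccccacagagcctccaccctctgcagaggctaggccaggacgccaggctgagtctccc
Gata5: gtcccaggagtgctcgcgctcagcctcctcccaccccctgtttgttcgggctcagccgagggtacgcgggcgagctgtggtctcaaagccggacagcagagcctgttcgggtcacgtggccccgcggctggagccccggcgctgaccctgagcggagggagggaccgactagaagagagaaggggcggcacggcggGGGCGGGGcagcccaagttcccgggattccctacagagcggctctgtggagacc

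The motifs were searched on both strands: CAGAC for SMAD factors, AGATAA for GATA factors, TGANTCA for AP-1, TTTATG for CDX factors, CCCCGCCC for KLF and SP factors and CAAAGTCCA for HNF4 factors. In the upstream Hnf4a promoter AGATAA began 52 bases before the start site and GGGCGGGG, the reverse strand of CCCCGCCC, 44 bases before it. The downstream Hnf4a promoter held none of the 6 motifs, and that of Gata5 held GGGCGGGG 54 bases before the start site. Promoters of Klf4 and Cdx2 were also searched, which makes 4 of 9 members. The Klf4 promoter (chr4:55532476-55532725, minus strand) held CCCCGCCC or its reverse 4 times, starting 219, 214, 191 and 101 bases before the start site, with the first pair overlapping. The Cdx2 promoter (chr5:147307250-147307499, minus strand) held GTCTG, the reverse strand of CAGAC, 66 bases before the start site. Of 32851 promoters of this length, 42.2% held CAGAC, 9.99% AGATAA, 6.75% TGANTCA, 10.8% TTTATG, 16.1% CCCCGCCC and 0.384% CAAAGTCCA. GC content was 51.2% and 57.6% for Hnf4a, 70.0% for Gata5, 74.0% for Klf4 and 55.2% for Cdx2, against a median of 52.4% over all promoters. Cdx1, Gata6, Hnf4g, Gata4 and Klf5 are named only, and a match describes letters in a window, not a bound site.

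Bulk values are FPKM, fragment counts scaled to transcript length and library size, so levels of different genes can be compared. Between 11040 and 11361 genes exceeded 1 FPKM per library, the FPKM total lay between 447728 and 621996, and the read depth is unknown. Median coefficients of variation between replicates, over genes of at least 10 FPKM, were 3.17 to 4.25% in the 4 day 7 groups and 8.34% and 5.49% in the day 11 vehicle and TGFB1 groups. The organoids carried epithelial markers at high levels (Epcam 532 to 2148 FPKM, Vil1 176 to 546 FPKM), while the 6 mesenchymal markers summed to at most 4.76 FPKM and the 4 endothelial markers to at most 0.308 FPKM in any library. All 9 members passed the filter of a mean of at least 1 FPKM in every comparison. Antisense genes lie at 2 members, Gata5os at 0.0448 to 0.775 FPKM and Hnf4aos at 0 to 1.53 FPKM, and no source used here says whether reads were counted by strand.

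With TGFB1, 6 members were lower in all 3 conditions (Cdx1, Cdx2, Hnf4a, Hnf4g, Gata4 and Gata6), 2 were higher in all 3 (Gata5 and Klf5), and Klf4 changed direction. In non-irradiated organoids 2 of 9 members were called higher and 7 of 9 lower at a limma adjusted p under 0.05, where 33.3% of the 11330 genes tested were called higher and 34.9% lower. In irradiated organoids of day 7 the members split into 3 higher and 6 lower, against 35.8% and 39.7% of all genes. On day 11 they split into 2 higher and 7 lower, against 32.3% and 31.6%. Most genes were therefore called in each condition, and only the lower counts, 7, 6 and 7 of 9, stand above the background shares. Median log2 changes of the members were -0.46, -0.22 and -0.49 in the 3 conditions, against -0.02, -0.03 and 0.01 over all genes tested. Most changes were moderate: 2, 0 and 1 members reached 2-fold on the scale of log2(FPKM + 1), where 8.82%, 13.6% and 14.2% of all genes did. In bulk libraries fewer cells of a type and less RNA per cell cannot be told apart.

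**Figure D1:**
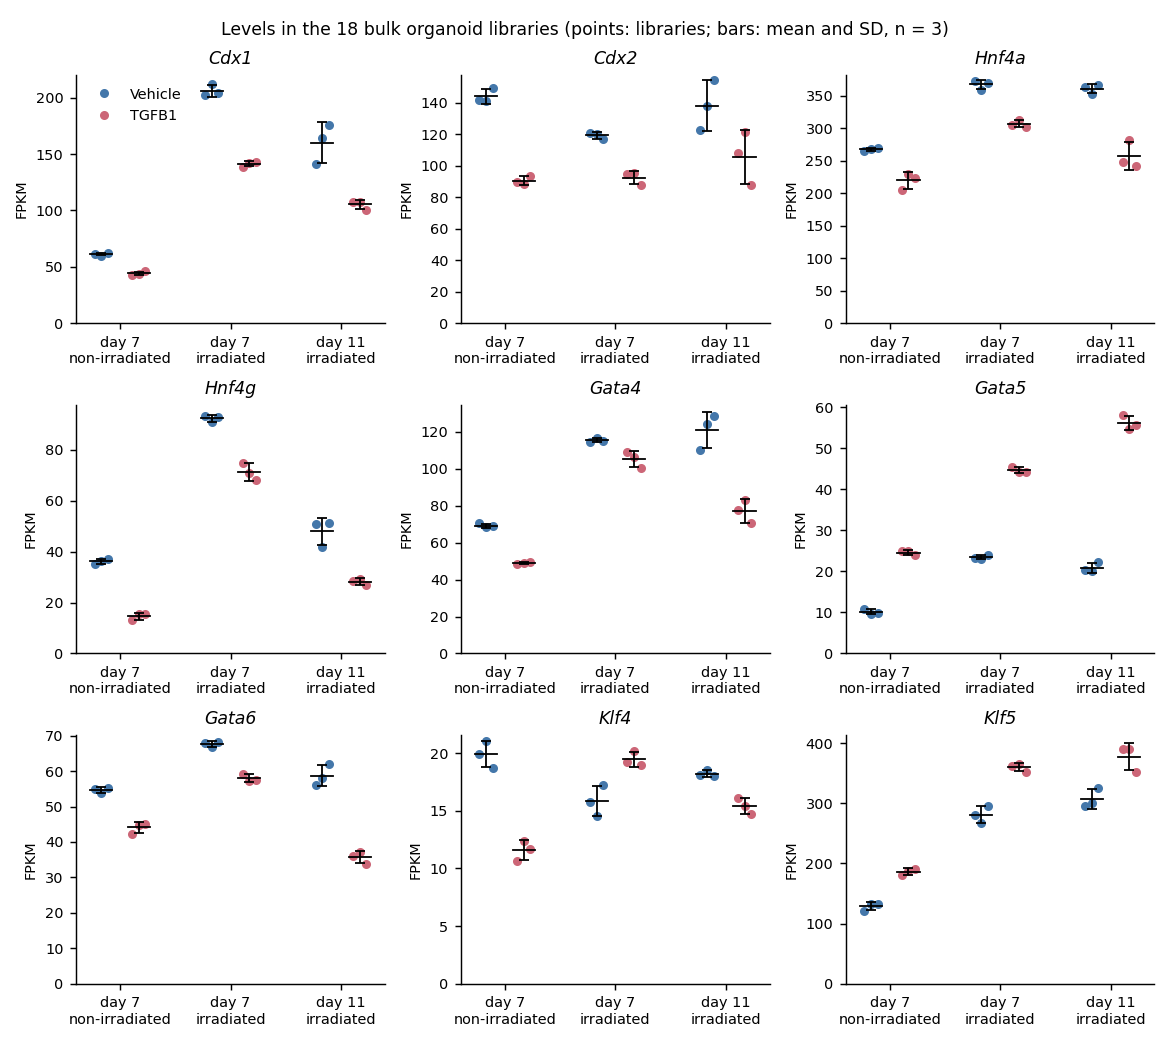
FPKM of each member (y axis, from 0) in the 18 bulk libraries by condition (x axis), with vehicle in blue and TGFB1 in red; points are libraries, bars the mean and SD of 3. Hnf4g, Gata5 and Cdx1 have the widest ranges of group means (6.33-, 5.54- and 4.66-fold), and the TGFB1 libraries of Gata5 lie above the vehicle libraries in each condition.

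Cdx1, a homeobox factor concentrated in crypts, was at 61.8, 60.0 and 61.9 FPKM in the non-irradiated vehicle libraries and at 43.2, 43.5 and 45.9 FPKM with TGFB1. In irradiated day 7 organoids it was at 202, 212 and 204 FPKM with vehicle and at 139, 142 and 143 FPKM with TGFB1. The groups did not overlap in either condition, and every irradiated library lay above every non-irradiated one. On day 11 the vehicle libraries were at 141, 164 and 176 FPKM and those with TGFB1 at 108, 108 and 101 FPKM, again without overlap. Cdx1 fell by 0.46 ± 0.04 (SE), 0.54 ± 0.04 and 0.60 ± 0.10 on the log2 scale in the 3 conditions, with limma adjusted p of 9.19e-07, 1.76e-07 and 0.000488.

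Cdx2, the main intestinal fate factor, was at 142, 141 and 149 FPKM in non-irradiated vehicle libraries and at 90.0, 88.2 and 93.5 FPKM with TGFB1. After irradiation it was at 120.8, 120.4 and 117 FPKM with vehicle and at 94.5, 95.4 and 87.5 FPKM with TGFB1 on day 7. The groups did not overlap in these 2 conditions. On day 11 vehicle libraries were at 122, 138 and 155 FPKM and TGFB1 libraries at 108, 121 and 87.5 FPKM, with the lowest vehicle library barely above the highest TGFB1 library. Cdx2 fell by 0.66 ± 0.04 (SE), 0.37 ± 0.04 and 0.39 ± 0.13 on the log2 scale (limma adjusted p = 4.15e-08, 1.41e-05 and 0.0234). The day 11 call did not hold without a filter on low values (limma adjusted p = 0.0524) or without vehicle replicate 2, vehicle replicate 3 or TGFB1 replicate 3 (0.0595, 0.08 and 0.0905).

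Hnf4a, the more abundant HNF4 gene, was at 265, 268 and 269 FPKM in non-irradiated vehicle libraries and at 205, 230.01 and 223 FPKM with TGFB1. In irradiated organoids of day 7 it was at 372, 359 and 370.02 FPKM with vehicle and 305, 313 and 302 FPKM with TGFB1, and on day 11 at 363, 353 and 366 FPKM and 248, 281 and 241 FPKM. The TGFB1 libraries lay below all vehicle libraries in each condition. Hnf4a fell by 0.28 ± 0.04 (SE), 0.26 ± 0.03 and 0.49 ± 0.10 on the log2 scale (limma adjusted p = 9.94e-05, 4.64e-05 and 0.00157).

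Hnf4g, its enterocyte-enriched paralog, was at 35.1, 36.1 and 37.3 FPKM in non-irradiated vehicle libraries and at 13.1, 15.4 and 15.3 FPKM with TGFB1. Irradiated organoids of day 7 had 93.3, 90.7 and 92.7 FPKM with vehicle and 74.8, 71.0 and 67.9 FPKM with TGFB1. Day 11 vehicle libraries were at 50.8, 41.9 and 51.1 FPKM and TGFB1 libraries at 28.4, 29.4 and 26.7 FPKM. No group overlapped its counterpart, and the lowest level of all was that of non-irradiated organoids with TGFB1. Hnf4g fell by 1.26 ± 0.06 (SE), 0.37 ± 0.04 and 0.74 ± 0.09 on the log2 scale (limma adjusted p = 1.64e-08, 1.34e-05 and 6.64e-05), the steepest fall among the members in the non-irradiated and in the day 11 condition.

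Gata4, the factor of proximal small intestine, was at 70.4, 68.2 and 68.9 FPKM in non-irradiated vehicle libraries and at 48.2, 48.7 and 49.5 FPKM with TGFB1. After irradiation it was at 114, 117 and 115 FPKM with vehicle and 109, 106 and 101 FPKM with TGFB1 on day 7, and at 109.96, 124 and 128 FPKM and 77.4, 83.1 and 70.4 FPKM on day 11. The groups were apart in each condition, most narrowly in irradiated day 7 organoids. Gata4 fell by 0.49 ± 0.03 (SE), 0.13 ± 0.04 and 0.64 ± 0.09 on the log2 scale (limma adjusted p = 1.93e-07, 0.0103 and 0.000219), and the day 7 irradiated call did not hold when all 18 libraries shared one fit (limma adjusted p = 0.0595).

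Gata6, expressed along the whole gut, was at 55.0, 53.9 and 55.2 FPKM and, with TGFB1, at 42.3, 44.9 and 45.2 FPKM in non-irradiated organoids. It was at 68.0, 66.7 and 68.3 FPKM against 59.3, 57.2 and 57.6 FPKM in irradiated organoids of day 7, and at 56.0, 58.2 and 61.9 FPKM against 36.2, 37.1 and 33.9 FPKM on day 11. TGFB1 libraries were the lower ones throughout, without overlap. Gata6 fell by 0.30 ± 0.04 (SE), 0.22 ± 0.04 and 0.70 ± 0.07 on the log2 scale (limma adjusted p = 2.94e-05, 0.000219 and 2.38e-05).

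Gata5, the GATA factor with the lowest level in vehicle libraries, went the other way from its paralogs. It was at 10.9, 9.65 and 9.95 FPKM in non-irradiated vehicle libraries and at 24.9, 24.9 and 24.0 FPKM with TGFB1. In irradiated organoids of day 7 it was at 23.4, 23.1 and 24.0 FPKM with vehicle and 45.6, 44.4 and 44.4 FPKM with TGFB1, and on day 11 at 20.3, 20.1 and 22.4 FPKM and 58.2, 54.8 and 55.8 FPKM. Vehicle libraries after irradiation sat about where non-irradiated TGFB1 libraries did, and the TGFB1 libraries of irradiated organoids were the highest, with no overlap between vehicle and TGFB1 in any condition. Gata5 rose by 1.20 ± 0.05 (SE), 0.90 ± 0.04 and 1.39 ± 0.07 on the log2 scale (limma adjusted p = 5.42e-09, 8.31e-09 and 3e-07), which is 2.30-, 1.87- and 2.62-fold on the FPKM + 1 scale.

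Klf4, the factor linked to cell-cycle exit, was at 19.96, 21.0 and 18.7 FPKM in non-irradiated vehicle libraries and at 10.6, 12.4 and 11.7 FPKM with TGFB1. In irradiated organoids of day 7 it was at 15.7, 14.6 and 17.2 FPKM with vehicle and at 19.2, 20.2 and 19.0 FPKM with TGFB1. The groups did not overlap in either condition, with TGFB1 the lower one without irradiation and the higher one with it. On day 11 vehicle libraries were at 18.1, 18.5 and 18.03 FPKM and TGFB1 libraries at 16.1, 15.4 and 14.7 FPKM. Changes were -0.74 ± 0.06 (SE), 0.28 ± 0.06 and -0.23 ± 0.07 on the log2 scale (limma adjusted p = 1.18e-06, 0.00158 and 0.0163). The day 11 fall lost its call without vehicle replicate 2 (limma adjusted p = 0.053), TGFB1 replicate 2 (0.0521) or TGFB1 replicate 3 (0.0593).

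Klf5, the factor of dividing crypt cells, was at 122, 133 and 132 FPKM in non-irradiated vehicle libraries and at 180.4, 188 and 191 FPKM with TGFB1. It was at 281, 267.5 and 295 FPKM against 362, 365 and 353 FPKM in irradiated organoids of day 7, and at 295, 300.3 and 326 FPKM against 390.2, 390.6 and 352 FPKM on day 11. TGFB1 libraries were the higher ones in each condition, without overlap. Klf5 rose by 0.53 ± 0.04 (SE), 0.36 ± 0.04 and 0.30 ± 0.10 on the log2 scale (limma adjusted p = 7.12e-07, 1.81e-05 and 0.0234). On day 11 the call did not hold with the replicate number as a block (limma adjusted p = 0.0509) or without vehicle replicate 2, TGFB1 replicate 1 or TGFB1 replicate 2 (0.072, 0.108 and 0.0883).

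**Figure D2:**
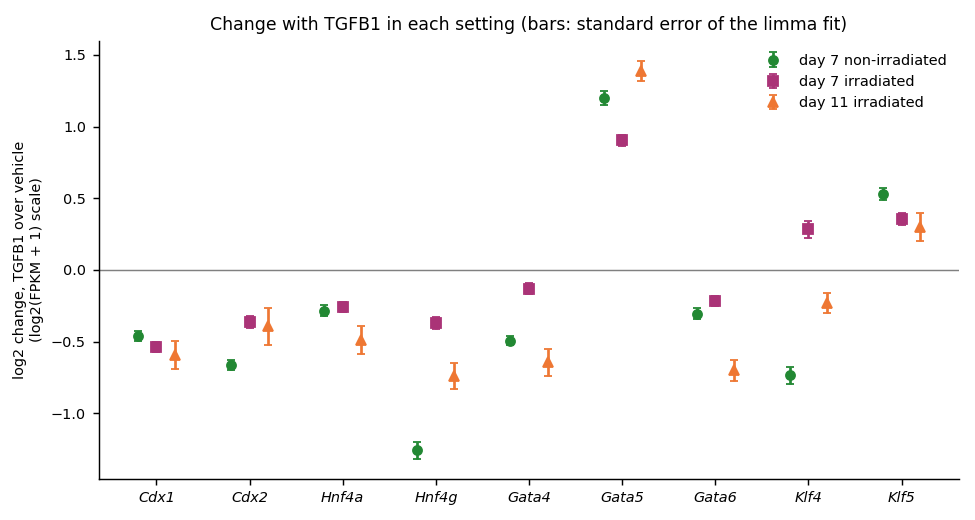
Log2 change with TGFB1 over vehicle on the scale of log2(FPKM + 1) (y axis) for each member (x axis) in the 3 conditions; bars are the SE of the limma fit. Gata5 and Klf5 lie above 0 and 6 members below 0 in each condition, while Klf4 lies above 0 only in irradiated organoids of day 7 (0.28).

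Whether the response differed with irradiation was tested as the difference between the irradiated and non-irradiated changes on day 7. A positive term means a smaller fall or a larger rise after irradiation. Among the members 4 of 9 terms were called higher and 2 of 9 lower by limma, where 25.3% of 11411 genes were called higher and 27.8% lower, so the higher count is above and the lower count near the background. The largest term was that of Klf4, at 1.02 ± 0.09 (SE, limma adjusted p = 4.91e-07), followed by Hnf4g at 0.89 ± 0.08 (3.62e-07). Smaller positive terms belonged to Gata4 (0.36 ± 0.05, limma adjusted p = 1.84e-05) and Cdx2 (0.30 ± 0.06, 0.000412), and the term of Cdx2 was not called when all 18 libraries shared one fit (0.0698). Gata5 had a term of -0.29 ± 0.06 (limma adjusted p = 0.001), a smaller rise after irradiation. Klf5 had one of -0.17 ± 0.06 (0.0269), which lost its call with all 18 libraries in one fit (0.107) and without non-irradiated vehicle replicate 1 (0.073), non-irradiated TGFB1 replicate 2 (0.0509) or 3 (0.0653), irradiated vehicle replicate 3 (0.0742) or irradiated TGFB1 replicate 3 (0.0527). Cdx1, Hnf4a and Gata6 had terms of -0.08 ± 0.05, 0.02 ± 0.05 and 0.09 ± 0.05 that did not pass (limma adjusted p = 0.17, 0.724 and 0.143).

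Whether the response differed with day was tested in the same way over the 12 irradiated libraries. Among the members 1 of 9 terms was called higher on day 11 and 5 of 9 lower, where 31.5% of 11456 genes were called higher and 33% lower, so the higher count is below and the lower count above the background. Gata5 was the gene with the higher term, 0.48 ± 0.08 (SE, limma adjusted p = 6.83e-05). Gata4 (-0.51 ± 0.10, limma adjusted p = 0.000552), Gata6 (-0.48 ± 0.08, 7.39e-05), Klf4 (-0.51 ± 0.09, 0.000194) and Hnf4g (-0.37 ± 0.10, 0.00589) had lower terms. The GATA trio therefore parted further on day 11, with the rise of Gata5 larger and the falls of Gata4 and Gata6 steeper than on day 7. Hnf4a had a term of -0.23 ± 0.10 (limma adjusted p = 0.0454) that was not called with a replicate block (0.0829) or on leaving out 1 library, for 9 of the 12 libraries (0.064 to 0.108). Cdx1, Cdx2 and Klf5 had terms of -0.05, -0.03 and -0.06 that did not pass (0.668, 0.885 and 0.616).

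The 3 conditions stand in separate tables that may have been normalised apart, so levels between them are described and not tested, and table and condition cannot be told apart. A level was called apart when it differed at least 2-fold with no overlap between 3 and 3 libraries. With vehicle on day 7, irradiated organoids had 4 members called higher and 0 lower, where 8.03% of genes were higher and 7.44% lower. Cdx1 was 3.33-fold, Hnf4g 2.51-fold, Gata5 2.19-fold and Klf5 2.17-fold as high as without irradiation, on the FPKM + 1 scale. Gata4 was 1.66-fold, Hnf4a 1.37-fold and Gata6 1.23-fold as high, whereas Cdx2 and Klf4 stood at 0.829 and 0.806 times their level without irradiation. With TGFB1, 3 members were called higher (Hnf4g 4.64-fold, Cdx1 3.15-fold, Gata4 2.14-fold) and 0 lower, where 9.73% and 8.92% of genes were. The counts of 4 and 3 of 9 stand above these background shares.

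Between day 7 and day 11 after irradiation the members moved less. With vehicle, 0 members were called higher and 0 lower, where 3.51% and 3.28% of genes were; Hnf4g came nearest, at 0.525 times its day 7 level. With TGFB1, 0 members were called higher and 1 lower, where 6.32% and 8.52% were, so the count is near the background. That member was Hnf4g, at 0.404 times its day 7 level, and Gata6 followed at 0.622 times.

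Within each library the members kept a wide order of levels. Hnf4a was the highest of the 9 in the 3 vehicle groups and in non-irradiated organoids with TGFB1 (219.6 ± 12.7 FPKM, SD, n = 3). Klf5 was the highest in both irradiated TGFB1 groups, at 359.9 ± 6.45 and 377 ± 22.4 FPKM (SD, n = 3). Gata5 was the lowest in non-irradiated vehicle libraries (10.2 ± 0.656 FPKM, SD, n = 3), and Klf4 was the lowest in the other 5 groups. Neighbours in the order whose libraries overlapped were Cdx1 and Gata6 in non-irradiated TGFB1 libraries, Cdx1 and Cdx2 as well as Cdx2 and Gata4 on day 11 with vehicle, and Cdx2 and Cdx1 on day 11 with TGFB1.

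For each member the 2 genes with the most similar pattern were found by Pearson r of log2 values over the 18 libraries, among 11473 genes; the libraries share tables and treatments, so r is a description. For the CDX pair they were Naaa (r = 0.991) and Baiap2l2 (0.988) with Cdx1, and Ces1d (0.912) and Sgpp1 (0.899) with Cdx2. For the HNF4 pair they were Cpn1 (0.975) and Myrfl (0.972) with Hnf4a, and Slc2a5, encoding a fructose transporter (0.99), and Bche (0.989) with Hnf4g. For the GATA trio they were Brpf3 (0.982) and Idh3g (0.981) with Gata4, Prep (0.988) and 1700017B05Rik (0.981) with Gata5, and Dab1 (0.983) and Mlycd (0.977) with Gata6. For the KLF pair they were Nos2 (0.879) and Prkag2 (0.812) with Klf4, the lowest values among the members, and Supt6 (0.992) and Ubald1 (0.985) with Klf5. Between the paralogs, Cdx1 and Cdx2 had r = 0.21 over all libraries and 0.901 after each table was centred.

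Shares within a family compare paralogs inside 1 library, where a factor common to the library cancels. Cdx1 made up 29.3 to 30.4% of the summed Cdx1 and Cdx2 FPKM in non-irradiated vehicle libraries and 62.6 to 63.8% in irradiated day 7 vehicle libraries. The order of the pair was thus opposite in these groups, and on day 11 the share was 53.2 to 54.4%. With TGFB1 it was 32.4 to 33.0%, 59.5 to 62.1% and 47.0 to 53.5% in the 3 conditions. The log2 ratio of Cdx1 to Cdx2 was 2.02 higher in irradiated than in non-irradiated vehicle libraries, with no overlap.

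Gata5 made up 7.33 to 8.00% of the GATA sum with vehicle and 20.2 to 21.6% with TGFB1 in non-irradiated organoids. The shares were 11.2 to 11.6% and 21.3 to 21.9% in irradiated organoids of day 7, and 9.91 to 10.9% and 31.3 to 34.9% on day 11. In irradiated organoids of day 7 the summed level of the trio was nearly the same, 206.5 ± 0.701 FPKM with vehicle and 208 ± 5.71 FPKM with TGFB1 (SD, n = 3), so the composition differed more than the total. On day 11 the log2 ratio of Gata5 to Gata6 was 2.15 higher with TGFB1, and Gata5 (56.3 FPKM) stood above Gata6 (35.7 FPKM), the reverse of the vehicle group.

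Hnf4g made up 11.7 to 12.2% of the HNF4 sum with vehicle and 5.97 to 6.42% with TGFB1 in non-irradiated organoids, 20.1% ± 0.0698 (SD, n = 3) and 18.4 to 19.7% in irradiated organoids of day 7, and 10.6 to 12.3% and 9.48 to 10.3% on day 11. Klf4 made up 12.4 to 14.1% of the Klf4 and Klf5 sum in non-irradiated vehicle libraries and 3.79 to 6.17% in the other 5 groups. Log2 ratios of paralogs were compared in 25 exact permutation tests, two-sided, and 21 of them gave no overlap and p = 0.1, the smallest that 3 against 3 allows (adjusted over the 25, 0.119). The other 4 overlapped: Cdx1 to Cdx2 with TGFB1 on day 11 (exact p = 0.3), Klf4 to Klf5 with TGFB1 in irradiated organoids of day 7 (0.2), and Gata5 to Gata6 and Klf4 to Klf5 between day 11 and day 7 vehicle libraries (0.3 each). No share was computed for ratios of other gene pairs or for lack of overlap between vehicle and TGFB1. The count of 21 therefore has no background share. By limma, 68.2%, 75.5% and 63.9% of all genes were called with TGFB1 in the 3 conditions. Lack of overlap was common among levels of single genes. It held for 40.7% (higher) and 44.3% (lower) between irradiated and non-irradiated day 7 vehicle libraries. Between day 11 and day 7 vehicle libraries the shares were 33.7% and 33.1%.

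**Figure D3:**
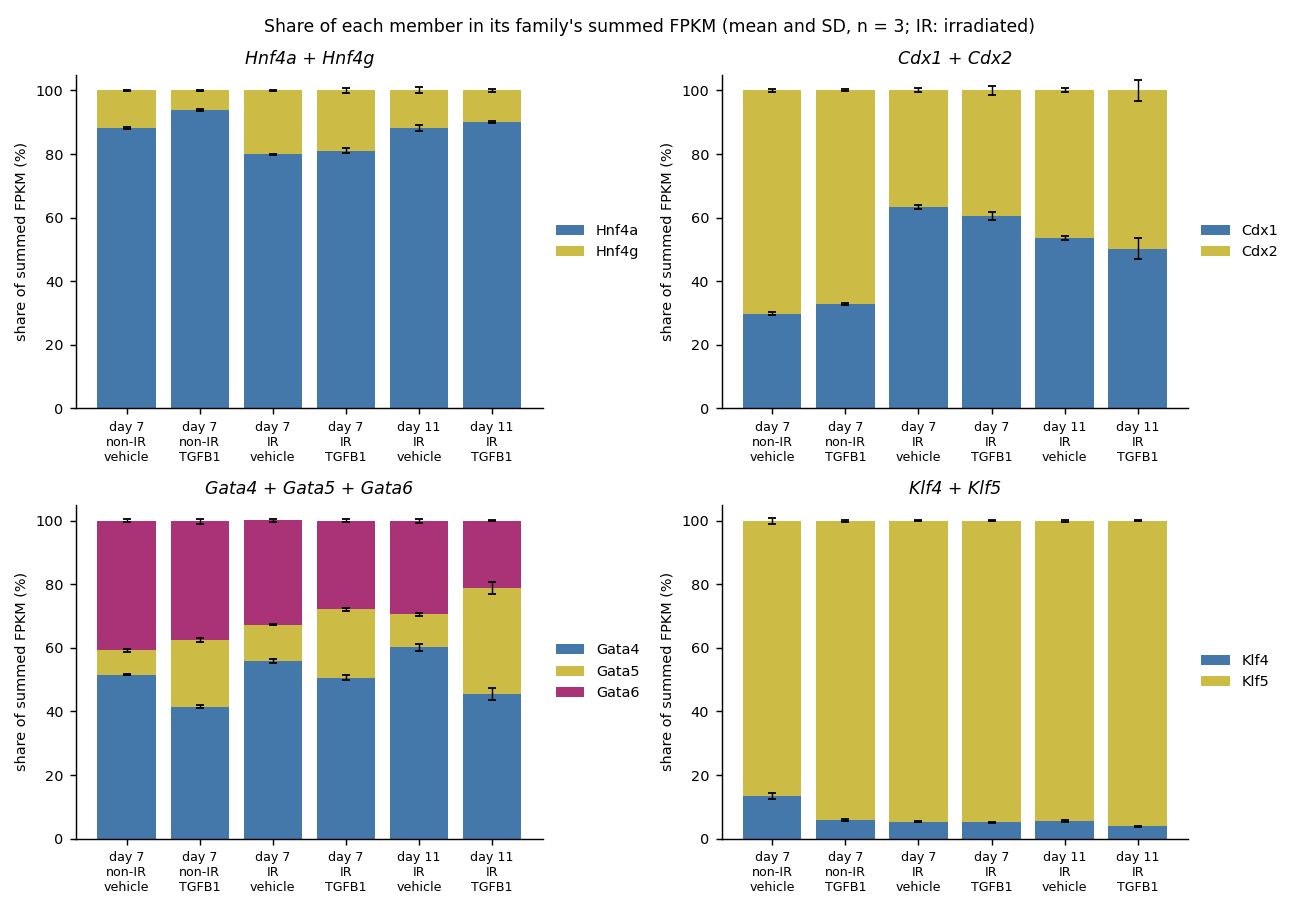
Share of each member in the summed FPKM of its family (y axis, %, stacked from 0) in the 6 bulk groups (x axis; IR, irradiated), as mean with SD of 3 libraries. Cdx1 makes up 29.8% of the CDX sum in non-irradiated vehicle libraries and 63.3% in irradiated day 7 vehicle libraries, and Gata5 reaches 33.4% of the GATA sum on day 11 with TGFB1.

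Markers of cell types moved with these changes, and their part in them was not tested. The 7 enterocyte markers (Fabp1, Sis and others) summed to 3176 to 3319 FPKM with vehicle and 1391 to 1509 FPKM with TGFB1 in non-irradiated organoids, to 12247 to 13025 and 17995 to 18879 FPKM in irradiated organoids of day 7, and to 3219 to 5736 and 1920 to 2270.0 FPKM on day 11. The 6 regenerative markers (Clu, Ly6a and others) summed to 215 to 241 FPKM with vehicle and 2409.7 to 2506 FPKM with TGFB1 without irradiation, to 249 to 278 and 4163 to 4500.4 FPKM in irradiated organoids of day 7, and to 129.5 to 164 and 4256 to 5117 FPKM on day 11. The 6 proliferation markers summed to 279 to 291 FPKM with vehicle and 96.4 to 113 FPKM with TGFB1 in irradiated organoids of day 7. They were at 386.5 to 392 against 321 to 334 FPKM without irradiation and at 291 to 334 against 315 to 333 FPKM on day 11. The 6 stem markers (Lgr5, Olfm4 and others) summed to 871 to 955 FPKM with vehicle and 563 to 586 FPKM with TGFB1 without irradiation, to 955 to 989 and 386 to 470.5 FPKM in irradiated organoids of day 7, and to 545 to 706 and 701 to 858 FPKM on day 11. The 7 enteroendocrine markers (Chga, Cck and others) were at 355 to 372 and 362 to 377 FPKM, at 451 to 492 and 993 to 1043 FPKM, and at 699 to 827 and 299 to 374 FPKM in the same order. Their sum was thus higher with TGFB1 in irradiated organoids of day 7 and lower on day 11, as Klf4 was. Without irradiation these sums overlapped, while Klf4 was lower with TGFB1. The enterocyte sum was lower, higher and lower with TGFB1 in the same order, with the signs of Klf4 in every condition. Its markers did not move together in irradiated organoids of day 7. There Apoa1 (2283 to 6482 FPKM), Apoa4 (1560 to 3509 FPKM) and Alpi (1002.5 to 1397 FPKM) were higher with TGFB1. Sis (529 to 376 FPKM) and Fabp2 (564 to 481 FPKM) were lower, and Fabp1 was not called (limma adjusted p = 0.0687). The 6 Paneth markers (Lyz1, Mmp7 and others) were at 11001 to 11258 and 9972 to 10947 FPKM, at 4590.0 to 5274 and 8157 to 8288 FPKM, and at 3057 to 3802 and 4499 to 5792 FPKM, and the 7 goblet markers (Muc2, Tff3 and others) were lower with TGFB1 in every condition, at 3723 to 3849 and 2848 to 3002 FPKM, 1562 to 1577 and 1254 to 1388 FPKM, and 1926 to 2274 and 1369 to 1483 FPKM. None of the markers of these lists was under 0.1 FPKM. Of the 6 immune markers 3 were under 0.1 FPKM, and most of their sum, at most 90.2 FPKM, was Cd74, which epithelium can also express.

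Other genes of gut identity moved in both directions. A gene under 1 FPKM in 1 group could pass the filter only by being higher in the other, so list counts are over genes with at least 1 FPKM in both groups. Over all genes tested, 33.3%, 35.8% and 32.3% were called higher and 34.9%, 39.7% and 31.6% lower in the 3 conditions. Of 26 other gut transcription factors, 10 rose and 9 fell of 20 such genes without irradiation, 8 rose and 7 fell of 20 in irradiated organoids of day 7, and 8 rose and 6 fell of 20 on day 11. Their median log2 changes were 0.22, 0.04 and 0.00 (all genes -0.02, -0.03 and 0.01). These counts leave out Isx, Prdm1 and Onecut3 without irradiation, Prdm1 and Onecut3 in irradiated organoids of day 7 and Isx on day 11, which passed only through the TGFB1 group. Vdr, the vitamin D receptor, fell in all 3 conditions (log2 change -1.79, -1.16 and -2.25, limma adjusted p = 2.61e-11, 1.2e-09 and 1.14e-07). Isx, an intestinal homeobox factor that restrains vitamin A uptake, was at 0.291 ± 0.0646 FPKM with vehicle and 2.74 ± 0.398 FPKM with TGFB1 (SD, n = 3) without irradiation and at 0.0856 ± 0.0858 and 77.2 ± 8.92 FPKM on day 11, given as values since the filter fixed the direction. Foxa1, a pioneer factor of endoderm, rose by 1.36, 1.48 and 1.66 in the 3 conditions (limma adjusted p = 2.41e-10, 4.83e-10 and 2.77e-07). Sox9, a factor of crypt base cells, rose by 1.46, 0.81 and 0.76 (limma adjusted p = 1.58e-10, 5.34e-08 and 3.8e-05). Among 19 other Klf, Gata and Cdx genes, 5 rose and 0 fell of 8, 7 rose and 0 fell of 8, and 4 rose and 3 fell of 8, in the same order of conditions. Klf6 rose in each (log2 change 1.66, 2.16 and 0.74, limma adjusted p = 1.86e-10, 3.05e-10 and 1.17e-05), whereas Klf11 fell on day 11 (-1.49, limma adjusted p = 4.11e-06).

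Genes known to be bound or held by the members were counted as well. Of 25 enterocyte genes bound by CDX2 or HNF4 factors, 6 rose and 17 fell of 24 without irradiation, where 33.3% of all genes were called higher and 34.9% lower. With irradiation on day 7, 15 rose and 7 fell of 25 (all genes 35.8% and 39.7%), and on day 11, 1 rose and 18 fell of 24 (32.3% and 31.6%). Lct is left out of the first and the last of these counts, as are Klf15 on day 11 and Tgfbi without irradiation and on day 11 in the other lists. The medians were -0.76, 0.25 and -0.85 (all genes -0.02, -0.03 and 0.01). Sis, encoding sucrase-isomaltase, fell by 2.63 on the log2 scale without irradiation (limma adjusted p = 8.36e-09), while Lct, encoding lactase, rose by 1.84 in irradiated organoids of day 7 (2.31e-09). Of the 25 irradiation terms of this list 21 were called higher and 1 lower, where 25.3% and 27.8% of all genes were, and of the 25 day terms 0 were called higher and 23 lower, where 31.5% and 33% were. In irradiated organoids of day 7, Hnf4a, Hnf4g and Cdx2 were lower with TGFB1 while 15 of these 25 genes were higher.

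Stomach genes that CDX2 is known to hold low numbered 14, of which only 7, 4 and 6 had at least 1 FPKM in both groups of the 3 conditions. Among these 6, 3 and 5 rose and 0 fell, where 33.3%, 35.8% and 32.3% of all genes were called higher and 34.9%, 39.7% and 31.6% lower. The same shares apply to the ileal and TGFB response counts below. Cldn18 and Vsig1 in irradiated organoids of day 7 and Vsig1 on day 11 passed only through the TGFB1 group and are not counted. Ctse, encoding the gastric protease cathepsin E, rose from 1.89 to 29.4 FPKM without irradiation, from 3.75 to 111 FPKM in irradiated organoids of day 7 and from 2.51 to 65.7 FPKM on day 11 (log2 change 3.40, 4.58 and 4.26, limma adjusted p = 6.83e-11, 1.88e-09 and 1.91e-05). Gkn3, a gastrokine also found in intestinal crypts, rose from 2.68 to 135 FPKM without irradiation (limma adjusted p = 0.000119). Of 5 ileal genes known to be held low by GATA4, 0 rose and 2 fell of 3 without irradiation, 1 rose and 0 fell of 3 in irradiated organoids of day 7, and 0 rose and 3 fell of 3 on day 11, leaving out Slc51b in the first and Slc10a2 in the last, which passed through 1 group only. Nos2, encoding inducible nitric oxide synthase, had changes of -1.65, 1.497 and -1.14 (limma adjusted p = 5.24e-09, 3.12e-08 and 0.000456), with the same signs as Klf4. As a check of the treatment, 8 of 8, 8 of 9 and 6 of 8 TGFB response genes rose and 0, 1 and 1 fell, with Pmepa1, a SMAD target, rising by 4.31, 4.46 and 3.92 (limma adjusted p = 2.52e-12, 1.8e-12 and 1.65e-08).

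In single cells, levels are UMIs summed over cells and scaled to the library total (CPM), with exact Poisson intervals at 95% that cover counting error only. They are 3′ tag counts and are not compared between genes. After filtering, 2932, 4283, 2890 and 2218 organoid cells were kept at 0, 6, 15 and 24 h, where a median cell held 8201.5, 6709, 7805 and 10441 UMIs. Apart from 1 barcode common to 15 and 24 h, libraries of an experiment shared none. With 1 library per time there is no test, and a gene counts as higher or lower here when its CPM differs at least 1.5-fold. At 6 h of TGFB1, 0 members were higher and 0 lower than at 0 h, where 3.1% of genes were higher and 1.36% lower. At 15 h 1 member was higher and 0 lower (background 6.65% and 4.42%), and at 24 h again 1 higher and 0 lower (10.7% and 6.07%), so these counts lie close to the background. That member was Gata5 at both times.

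Gata5 stood at 15.2 CPM (13.8 to 16.7) at 0 h, 17.04 CPM (15.6 to 18.5) at 6 h, 23.2 CPM (21.4 to 25.1) at 15 h and 26.8 CPM (24.95 to 28.6) at 24 h, a ratio of 1.76 between 24 and 0 h. Klf4 was at 40.0, 39.8, 50.7 and 57.4 CPM, 1.44 times as high at 24 h as at 0 h. Both were highest at 24 h, with intervals apart from those at 0 h. The same held for Hnf4g and Klf5 with smaller ratios (1.16 and 1.06). In bulk irradiated organoids of day 7, by contrast, Hnf4g was lower with TGFB1. Cdx1 was at 192, 192, 164 and 147 CPM and Cdx2 at 119.98, 119.6, 112 and 105 CPM, at 0.765 and 0.877 of the 0 h level at 24 h. Hnf4a was higher at 6 h (400.5 CPM) than at 0 h (322 CPM) and lowest at 24 h (275 CPM), and Hnf4g was at 27.8, 21.8, 26.5 and 32.3 CPM. The remaining members stayed within a narrow range: Gata4 at 71.1 to 78.2 CPM, Gata6 at 95.8 to 119.9 CPM and Klf5 at 504 to 580.2 CPM. Dose, day and assay differ from the bulk libraries. Beside these levels, the 6 regenerative markers summed to 23.0, 79.1, 374 and 893 CPM at 0, 6, 15 and 24 h and the 7 enterocyte markers to 18860 to 22870 CPM.

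**Figure D4:**
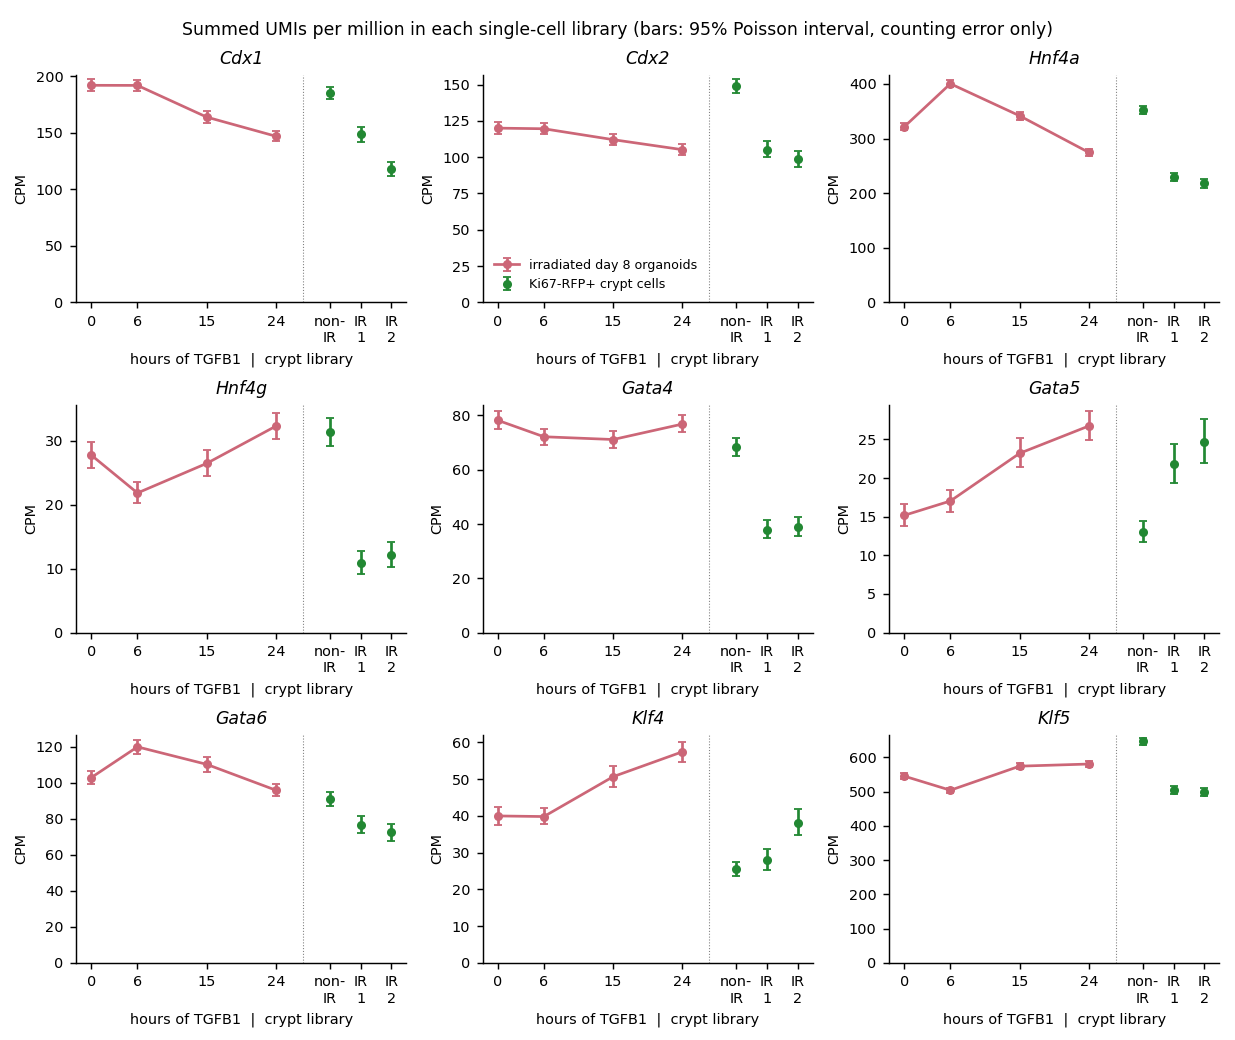
CPM of each member (y axis, from 0) in the 7 single-cell libraries: irradiated day 8 organoids by hours of TGFB1 (red, joined by lines) and Ki67-RFP+ crypt cells, non-irradiated and irradiated 1 and 2 (green); bars are 95% Poisson intervals for counting error only. Gata5 goes from 15.2 CPM at 0 h to 26.8 CPM at 24 h, and Hnf4g from 31.3 CPM in non-irradiated to 10.8 and 12.1 CPM in irradiated crypt cells.

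The organoid cells formed 14 clusters. Of these, 7, with 36.0% of 12323 cells, stayed unnamed, either without a clear marker set or through 2 added naming rules. Others were called by the marker list they were highest in: enterocyte-like (3689 cells), proliferation-like (2026), stem-like (1406), regenerative-like (453) and enteroendocrine-like (307, also high in goblet markers). Because clusters were made from all genes, the levels below describe them and are not tested. Highest and lowest refer to the named classes, and unnamed clusters could lie beyond them. Hnf4g was the member that varied most between these classes, from 45.5 CPM in enterocyte-like to 5.80 CPM in enteroendocrine-like cells, 7.84-fold. It was not confined to enterocyte-like cells. Unnamed clusters ranged from 7.35 CPM (822 cells) to 57.3 CPM (224 cells) and 67.3 CPM (454 cells), and the largest of them had 36.4 CPM (1581 cells). Klf4 was highest in enteroendocrine-like (83.9 CPM) and enterocyte-like cells (79.3 CPM) and lowest in proliferation-like cells (21.5 CPM). In unnamed clusters Klf4 ranged from 17.7 CPM (822 cells) to 112 CPM (176 cells). Cdx1 was lowest in enterocyte-like cells, 109 CPM against 247 CPM in enteroendocrine-like and 232 CPM in proliferation-like cells. Gata5 was highest in regenerative-like (34.2 CPM) and stem-like cells (33.0 CPM), whose intervals overlapped, and lowest among the named classes in enterocyte-like cells (17.6 CPM). Gata4 and Gata6 were highest in enterocyte-like cells (84.7 and 133 CPM), Klf5 in regenerative-like cells (738 CPM), and Hnf4a and Cdx2 in proliferation-like cells (406 and 131.5 CPM).

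**Figure D5:**
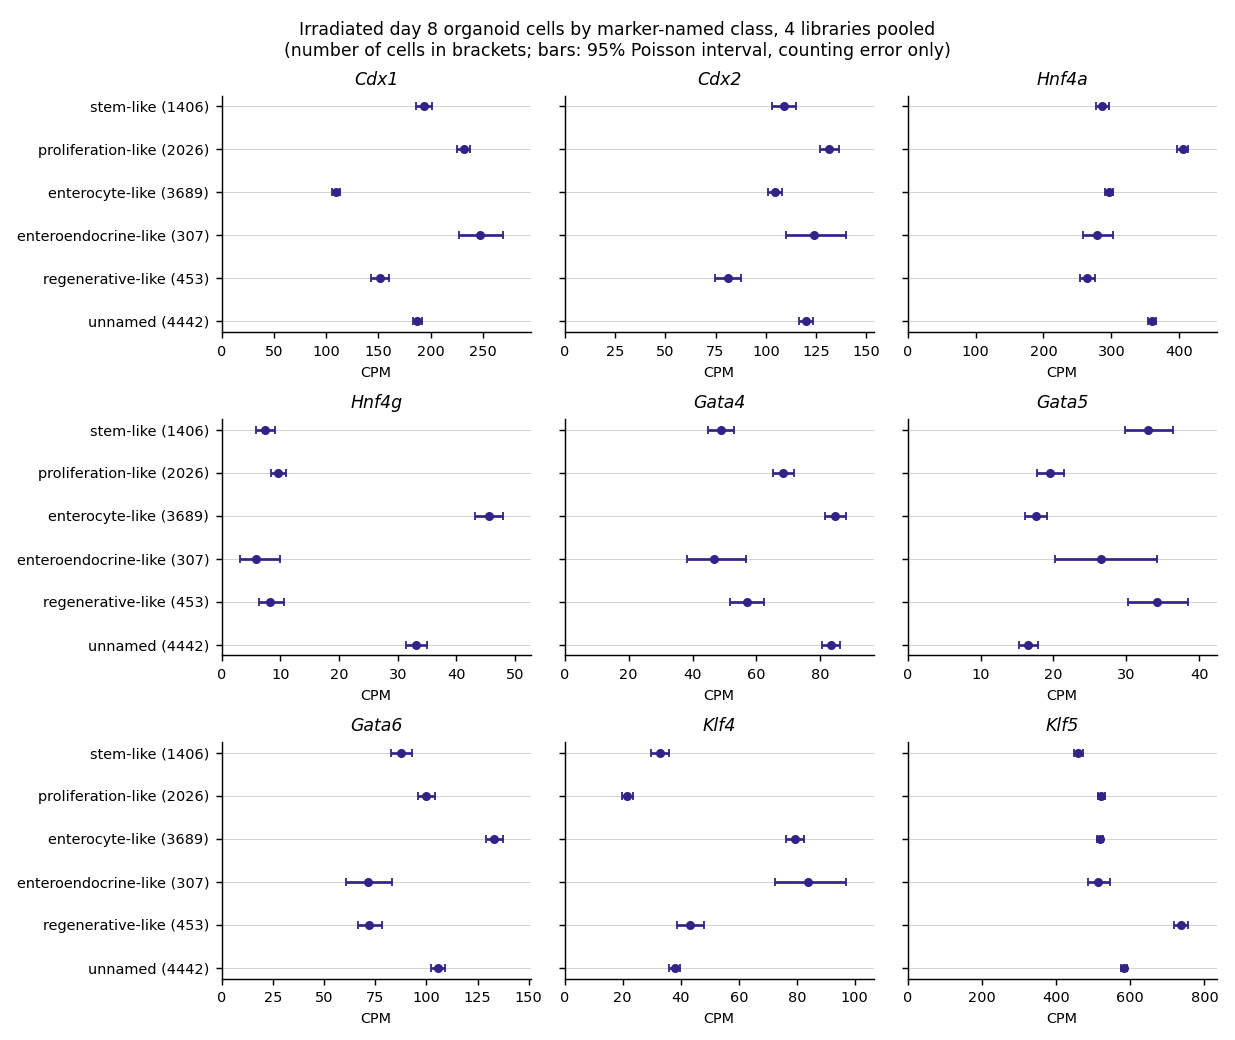
CPM of each member (x axis, from 0) in the classes of irradiated day 8 organoid cells (y axis, number of cells in brackets), 4 libraries pooled, with 95% Poisson intervals for counting error only. Hnf4g reaches 45.5 CPM in enterocyte-like cells against 5.80 to 9.58 CPM in the other named classes, and Gata5 34.2 CPM in regenerative-like cells. The unnamed clusters, pooled here, ranged from 7.35 to 67.3 CPM for Hnf4g.

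Within classes the time course of Gata5 differed in extent. In proliferation-like cells it was at 14.7, 17.1, 23.6 and 31.9 CPM at 0, 6, 15 and 24 h, and in stem-like cells at 20.04, 23.4, 38.6 and 37.5 CPM. In enterocyte-like cells it was at 17.5, 14.9, 18.6 and 19.7 CPM, with overlapping intervals at 0 and 24 h. Regenerative-like cells made up 0.273, 0.864, 5.22 and 11.6% of the cells over time and had 37.7 CPM at 15 h and 33.4 CPM at 24 h. Hnf4g in enterocyte-like cells was at 44.9, 38.7, 43.4 and 55.7 CPM. Enterocyte-like cells came mostly from different clusters over time: 1 cluster held 19.0, 29.0, 23.6 and 1.98% of the cells of each library and another 0.955, 0.864, 6.16 and 21.9%.

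Sorted Ki67-RFP+ crypt cells, which carry a reporter of the proliferation gene Mki67, gave 1846 cells without irradiation and 719 and 699 cells in the irradiated libraries, and 11968, 14399 and 13500 UMIs in a median cell. The irradiated crypts passed a wider strainer, so preparation and irradiation cannot be told apart. In both irradiated libraries 1 of 9 members was at least 1.5-fold higher and 3 of 9 lower, where 18.9% of 8620 genes were higher and 10% lower. Only the count of lower members stands above its background share. Hnf4g was at 31.3 CPM (29.2 to 33.6) without irradiation and at 10.8 CPM (9.18 to 12.7) and 12.1 CPM (10.2 to 14.2) after it, 0.346 and 0.385 of the first. Gata4 was at 68.3 CPM against 37.9 and 38.97 CPM, and Hnf4a at 353 CPM against 229 and 218 CPM. With whole-number entries alone, the ratios of Hnf4a were 0.713 and 0.667 and it was no longer called.

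Gata5 was the higher member in crypt cells, at 13.0 CPM (11.7 to 14.5) without irradiation and 21.8 CPM (19.4 to 24.4) and 24.7 CPM (22.0 to 27.6) after it. The irradiated libraries lay above the non-irradiated one for Gata5 and below it for Hnf4a, Hnf4g and Gata4, with intervals apart. Cdx1 was at 185 CPM against 148 and 118 CPM, Cdx2 at 149 CPM against 105 and 98.8 CPM, Gata6 at 90.9 CPM against 76.6 and 72.4 CPM, and Klf5 at 647 CPM against 504 and 499 CPM. Klf4 was at 25.5 CPM against 27.9 and 38.2 CPM. The libraries also differed in enterocyte markers, which summed to 3830 CPM without irradiation and 736 and 2142 CPM after it, in stem markers (2186 against 1373 and 898 CPM) and in regenerative markers (2.49 against 372 and 469 CPM), while proliferation markers summed to 948, 1087 and 969 CPM. The part of these markers in the member levels was not tested.

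The crypt cells formed 12 clusters, of which 6, with 38.8% of 3264 cells, stayed unnamed, and most clusters held cells of 1 condition only. Levels of a class are therefore not compared between conditions. Hnf4g was at 50.6 CPM in enterocyte-like and 18.1 CPM in stem-like cells of the non-irradiated library, and at 11.5 CPM over the 616 regenerative-like cells, all from irradiated libraries. Gata5 was at 17.1 and 11.7 CPM in the first pair and 26.6 CPM in the regenerative-like cells. Klf4 reached 182 CPM in the 127 goblet-like cells, against 20.8 CPM in stem-like and 18.9 CPM in regenerative-like cells.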

How the data were processed

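Each bulk library entered as FPKM per gene, deposited by the authors in 1 table per condition, with TopHat2 2.1.0, Cuffnorm 2.2.1 and Cuffdiff 2.2.1 named in the submitters' processing notes without roles; whether the 3 tables were normalised together is not stated. Single-cell libraries entered as estimated counts (UMIs, some fractional), deposited by the authors as matrices of 54307 gene rows, with STAR 2.7.10a and STARsolo named in the same notes. Fractional UMIs were 8.64 to 22.0% of a library's total and at most 0.981% for a member; they were not rounded, since sums entered no count test. The notes name mm9, GRCm39 and mm39.

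TGFB1 effects were tested with limma 3.58.1 (R 4.3.3, trend and robust) on log2(FPKM + 1) after removal of genes whose mean was under 1 FPKM, within each table, with Benjamini-Hochberg adjustment over all genes and a threshold of 0.05. Interaction terms were fitted over 2 tables, where a factor common to a table cancels. The fit was checked on simulated data. Counts over gene lists take genes with at least 1 FPKM in both groups, a limit added after values were seen. No column was left unmapped, and no libraries were identical. Same-numbered replicates did not deviate together, so numbers were not used as pairs.

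Cells had at least 500 UMIs, 250 genes and at most 20% mitochondrial counts; doublets were not removed. Clusters came from scanpy 1.11.5 (2000 variable genes, 30 components, 15 neighbours, Leiden resolution 0.6) and were named where the marker list's median fold was at least 2 with at least 3 markers detected. Folds need a mean of 10 CPM, and a level needs 50 cells.

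Members and gene lists were chosen with earlier results of these data known. Genes named from lists come from the 2 largest called rises and 2 largest called falls of each list in each condition, or, in the list of other gut transcription factors, from those whose role a sentence is about; the 2 genes most like each member were named too. Chosen after values were seen were the marker fold of 2, the 1.5-fold and 10 CPM limits, the family shares and paralog tests, the 6 motifs and 2 naming rules. Those rules left a cluster unnamed where its top 10 genes held more markers of another class or at least 8 pseudogenes, predicted genes or small RNAs. They kept out enterocyte-like clusters with 2.39, 4.62, 4.5 and 0.0902% of the organoid cells at 0, 6, 15 and 24 h, a stem-like cluster with 2.01, 3.81, 2.21 and 0.496%, and a Paneth-like cluster with 1.73% of the non-irradiated crypt cells. Alternatives were another filter, pseudocount, normalization or shared fit, a replicate block, leaving out each library, other cell filters, thinning and clustering. Accessibility data were not used here.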

Additional observations from a re-analysis of the deposited data

Results flagged for a closer look

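The TGFB1 response of 6 of 9 members differed between irradiated and non-irradiated organoids of day 7, as log2 differences of the change tested by the limma interaction term (irradiated minus non-irradiated). For this term 53.1% of 11411 genes were called. The members called were Klf4 at 1.019 (limma adjusted p = 4.91e-07), Hnf4g at 0.888 (3.62e-07), Gata4 at 0.363 (1.84e-05), Cdx2 at 0.298 (0.000412), Gata5 at -0.295 (0.001) and Klf5 at -0.173 (0.0269). For Klf4 the 2 changes had opposite signs, and for the other 5 they had the same sign. With all 18 libraries in one fit the calls of Cdx2 and Klf5 were lost (limma adjusted p = 0.0698 and 0.107). That of Klf5 was also lost on leaving out some single libraries.

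The response of 6 of 9 members differed between day 11 and day 7 after irradiation (day 11 minus day 7). For this term 64.5% of 11456 genes were called, so the count is near the background. The members called were Klf4 at -0.514 (limma adjusted p = 0.000194), Gata4 at -0.513 (0.000552), Gata5 at 0.485 (6.83e-05), Gata6 at -0.482 (7.39e-05), Hnf4g at -0.372 (0.00589) and Hnf4a at -0.232 (0.0454). The call of Hnf4a was lost with a replicate block (limma adjusted p = 0.0829) and on leaving out any of most single libraries. Collection on day 11 also came 4 days after the TGFB1 period, so day and time since treatment cannot be told apart.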

How the results depend on the processing

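Of the values recomputed under each alternative, 1557 kept their direction and side of the threshold or moved within their error, 223 moved further, 29 lost a call and 9 reversed; the cause was not tested. The members called higher on day 11 numbered 1 with the replicate block and 1 to 2 when single libraries were left out. The members with a lower irradiation term numbered 1 with all 18 libraries in one fit and 1 to 2 when single libraries were left out. The members with a higher day term numbered 2 with quantile normalization, which turned the day terms of Cdx1 to 0.085, Cdx2 to 0.068, Hnf4a to 0.032 and Klf5 to 0.24 (limma adjusted p = 0.028) and the level of Hnf4a with TGFB1 on day 11 against day 7 to 0.237. With single libraries left out, the irradiation term of Hnf4a ranged from -0.023 to 0.058, the day term of Cdx1 from -0.144 to 0.015 and that of Cdx2 from -0.132 to 0.1; none of these was called in the full fit. The replicate block left 7701, 8417 and 7351 genes called in the 3 conditions (7732, 8495 and 7335 without it), and same-numbered libraries had correlations of deviations from -0.17 to 0.25, so they share only a number. Among the members the block ended the day 11 call of Klf5 and the day term of Hnf4a. Cell names without the 2 added rules moved none of 81 class levels beyond its interval. FPKM without depth, 3 libraries per group and 1 single-cell library per time limit the precision.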

Other observations

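Summed over the members of each family, the GATA level in non-irradiated organoids was 134 ± 2.30 FPKM with vehicle and 117.5 ± 1.87 FPKM with TGFB1 (SD, n = 3), and on day 11 it was 200.4 ± 13.3 and 169 ± 7.87 FPKM. The Klf4 and Klf5 sum was 148.9 ± 6.52 and 198 ± 6.21 FPKM without irradiation and 325 ± 16.3 and 393 ± 23.0 FPKM on day 11.

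After each table was centred, Gata5 had r = -0.952 with Cdx1 over the 18 libraries, where the same pair had r = 0.306 without centring. These correlations share the treatment groups and are descriptions.

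In single organoid cells Klf4 stood at 18.8, 26.1, 25.02 and 46.2 CPM in stem-like cells at 0, 6, 15 and 24 h of TGFB1 and at 78.0, 72.2, 85.3 and 82.7 CPM in enterocyte-like cells.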
